A study of Homo sapiens with 96 samples.

Results

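The nuclear-encoded subunits of the mitochondrial respiratory chain were described in U2-OS, an established human line from an osteosarcoma, at the level of total RNA and of ribosome footprints, the mRNA pieces that a translating ribosome protects. Rows were chosen by symbol: those starting with NDUFA, NDUFB, NDUFC, NDUFS, NDUFV, UQCR, COX4 to COX8 or ATP5, plus SDHA to SDHD and CYC1, without the NDUFAF assembly factors. The rule took 91 of the 19438 rows in the deposited tables and used no measured value. They comprise 39 rows of complex I, 4 of complex II, 10 of complex III, 17 of complex IV, 16 of complex V and 5 that are not subunits, namely ATP5S, ATP5SL, the pseudogene UQCRBP1 and the read-through genes ATP5J2-PTCD1 and NDUFC2-KCTD14.

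Complexes I and II pass electrons from NADH and from succinate to ubiquinone, complex III passes them on to cytochrome c, and complex IV, cytochrome c oxidase, to oxygen. Complexes I, III and IV pump protons across the inner membrane, and complex V, the ATP synthase, uses the gradient to make ATP. Complex II is encoded wholly in the nucleus, whereas each of the others also holds subunits encoded in mitochondrial DNA, which are not among these rows. Cytoplasmic ribosomes make the nuclear subunits, so footprints report on their synthesis before import and assembly.

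The line carries a luciferase reporter under the Per2 promoter, and all cells were synchronised with 0.1 µM dexamethasone, a glucocorticoid that resets the cellular clock. Plates were collected from 24.5 h onwards every 2 h for 1 day (circadian time CT0 to CT22) after cycloheximide at 100 µg/mL, which holds ribosomes in place. Wild-type cells had no siRNA and were seeded at 2250000 per plate. Knockdown cells were seeded at 560000 per plate and transfected with 120 pmol of 5 pooled siRNAs against Bmal1, the clock transcription factor listed in the tables as ARNTL. No control siRNA is labelled, so loss of Bmal1, transfection and seeding density cannot be told apart in any difference between the treatments below. Each of the 48 combinations of treatment, assay and time has 2 libraries, which form 2 series of 12 times per treatment and assay. Whether the series were cultured apart is not in the labels, so p-values cover only the variation among these libraries, some or all of which may be technical.

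Recovered reads totalled 13589361 to 20066462 in 46 of 48 total RNA libraries and 2497246 to 5822458 in the 48 footprint libraries. In knockdown replicate 2, total RNA at CT14 and CT18 reached only 2657049 and 2564263 reads. Levels are given as CPM, a gene's share of the reads of its library scaled to 1e+06, after TMM scaling within an assay. ARNTL had a mean total RNA level of 32.5 ± 11.5 CPM in wild type and 4.84 ± 0.710 CPM in knockdown (SD, n = 24 libraries each). Its footprints averaged 18.7 and 0.658 CPM. Of 7 mesenchymal markers 6 exceeded 1 CPM, and their sum per library was 3635 to 4185 CPM in wild type and 4936 to 6001 CPM in knockdown. VIM averaged 1982 CPM in wild type and 2403 CPM in knockdown and FN1 703 and 1617 CPM, while COL1A1 averaged 180 and 177 CPM and RUNX2 15.5 and 10.5 CPM. Summed blood markers were 1.57 to 3.38 CPM in wild type and 9.84 to 17.6 CPM in knockdown, mostly CD68, with CD3E at 0 in every total RNA library. Muscle markers summed to 6.38 to 13.2 CPM and 0.867 to 3.82 CPM, neuronal markers to 314 to 397 CPM and 371 to 521 CPM, and epithelial markers to 7.35 to 23.7 CPM and 7.67 to 15.3 CPM. The part of these marker differences in the results below was not tested. In bulk libraries, fewer cells of a type and less RNA per cell cannot be told apart.

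NRF1 and the ETS factor GABP are textbook activators of respiratory chain genes, and ARNTL binds the E-box CACGTG, so the promoters were searched for these letters on both strands. RefSeq windows of the GRCh38.p14 build, from 250 bases before to 50 after the start, were at hand for 70 of the 91 rows. The NRF1-type sequence, GCGC and TGCGC with any 1 base between them, has as a special case the exact palindrome with A between them. It was found in 16 member genes, 22.9%, and in 6.98% of all 27305 genes with a window. The ETS-type sequence CCGGAAG was found in 20 members, 28.6%, and in 12.2% of all genes. CACGTG was found in 7 members, 10%, and in 8.77% of all genes. Windows of the members and of all genes have the same length, and a match is a description of the letters only. All genes with a window were counted, without matching to the members by gene type, expression or base content. Whether the shares are particular to the chain was not tested.

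SDHA, the flavoprotein that oxidises succinate, held 4 NRF1-type matches that begin 166, 117, 68 and 19 bases before the start, each 49 bases from the next. They are shown because SDHA also had the change in daily course with the smallest adjusted p, described below. Of the other members called for that change, UQCR10 held 1 NRF1-type match, and NDUFS1 and NDUFB10 held 0. A link between matches and daily course was not tested. The 4 stretches on the plus strand are given 5′ to 3′ in register, with the match in capitals and the last one ending at the base before the start.
SDHA chr5:218148-218196: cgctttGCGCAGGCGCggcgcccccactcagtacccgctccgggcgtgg
SDHA chr5:218197-218245: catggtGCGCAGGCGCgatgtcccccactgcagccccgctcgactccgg
SDHA chr5:218246-218294: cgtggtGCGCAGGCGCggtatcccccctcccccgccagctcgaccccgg
SDHA chr5:218295-218319: tgtggtGCGCAGGCGCagtctgcgc
Stretches 2 and 3 were identical at 37 of 49 bases, and stretches 1 and 2 at 25 of 49.

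The exact palindrome was found in 4 members, 5.71%, and in 1.52% of all genes. It lay wholly before the start in NDUFB4, SDHD and ATP5C1, all on the plus strand and shown with up to 25 bases on either side.
NDUFB4 chr3:120596152-120596211: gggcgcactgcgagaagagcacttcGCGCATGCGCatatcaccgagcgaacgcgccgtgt
SDHD chr11:112086738-112086797: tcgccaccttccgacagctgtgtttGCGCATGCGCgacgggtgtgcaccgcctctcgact
ATP5C1 chr10:7788130-7788176: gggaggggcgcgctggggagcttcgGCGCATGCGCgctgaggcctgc
UQCR11, a small complex III subunit with one of the larger differences below, held an E-box, CCGGAAG on each strand and a pair of NRF1-type matches, which are in capitals in the 192 bases before its start on the minus strand.
UQCR11 chr19:1605463-1605654: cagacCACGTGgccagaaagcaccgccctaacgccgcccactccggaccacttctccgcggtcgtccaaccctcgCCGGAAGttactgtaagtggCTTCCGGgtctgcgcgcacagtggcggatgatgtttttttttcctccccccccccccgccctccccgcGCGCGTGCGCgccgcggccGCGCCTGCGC
The windows of NDUFA10, NDUFB8 and NDUFA5, the complex I rows with the largest differences in total RNA below, held none of these motifs.

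Which isoforms these cells use was read from the levels. The tissue isoforms of complex IV were at or near 0 in total RNA: COX7A1 had no read in any of the 96 libraries, and COX6A2, the heart and muscle form, had 1 read over the 24 wild-type libraries. COX6B2 and COX8C, forms known from testis, had 33 and 19 reads over those libraries, and COX7B2 had 0. NDUFA4L2, a hypoxia-inducible relative of NDUFA4, had 7. The ubiquitous partners COX6B1 and COX8A had wild-type means of 213 and 301 CPM. COX4I2, the lung form of COX4, had 4 reads in wild-type total RNA, yet its footprints had a median of 1.32 CPM in wild type and 2.26 CPM in knockdown, from 137 and 185 reads.

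A pair of ubiquitous complex I subunits were listed at very low levels, NDUFA5 with a wild-type total RNA mean of 2.25 CPM and NDUFA11 with 1.38 CPM. Reads of overlapping or near-identical genes can be lost or shared in counting, and the sources used here do not say whether strand was used in counting, so these levels are uncertain.

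Relative to total RNA, chain mRNAs carried more footprints than the median gene. The log2 ratio of footprint to total RNA CPM in wild type had a median of 0.61 over the 79 members tested in both assays, and 63 of them lay above 0, where the median of 11149 genes was -0.067. By complex the medians were 0.77 in I, 0.44 in II, 0.19 in III, 0.45 in IV and 0.25 in V. A ratio also depends on how much of each transcript is coding, and differences between complexes were not tested.

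Exceptions were large: SDHD, a membrane anchor of complex II, had 159 CPM in total RNA and 26.8 CPM in footprints, a log2 ratio of -2.56. Its partner anchor SDHC had 20.7 and 51.6 CPM, a ratio of 1.31. NDUFC2, UQCRH and COX7C had ratios of -1.93, -1.70 and -1.52, and ATP5D, the delta subunit of the ATP synthase catalytic head, had 2.62. RefSeq names 7 pseudogenes for SDHD, 5 for SDHC, 4 each for UQCRH and COX7C, and none for NDUFC2 or ATP5D. The median ratio was 0.77 in 32 members without a named pseudogene, 0.63 in 21 with 1 or 2, and 0.23 in 26 with 3 or more. The 32 include UQCRBP1, itself a pseudogene, which had the highest ratio of all 79 members, 3.29. They also include UQCRHL, a copy of UQCRH, with a ratio of -0.83. The part of such copies in the ratios was not tested.

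The first comparison asked how the knockdown cells differed from wild type in total RNA, averaged over the day. In knockdown 28 of the 82 members tested were higher and none lower, by limma on the 2 series means per treatment at a Benjamini-Hochberg adjusted p of 0.05. At the same threshold 58.6% of all 13188 genes tested were called, 29.7% higher and 29.0% lower, so the members' share of 34.1% was below the background and lay on one side. The median difference was 0.11 on the log2 scale over members and 0.0095 over all genes, and 68 of 82 members lay above 0. Differences were small: members ranged from -0.17 to 0.49, and none exceeded 0.5 in size, where 25.4% of all genes did. One member was lower at an unadjusted p of 0.05, NDUFB6, which edgeR and DESeq2 each called lower (log2 difference -0.15 by limma, named after its value was seen).

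The count rests on few series. Without knockdown replicate 1, and likewise without knockdown replicate 2, it fell to 5 higher members, and NDUFA10, NDUFB8, UQCR10 and UQCR11 were called in both cases. Calls over all genes also fell without a knockdown replicate, as given at the end. Without wild-type replicate 1 the median difference was 0.16 over members and 0.0073 over all genes. Without wild-type replicate 2 these medians were 0.072 and 0.0087. The medians of the 4 pairs of a knockdown and a wild-type series were 0.059, 0.091, 0.13 and 0.18, all above 0. Without CT14 and CT18, the times of the shallow libraries, 36 members were higher and none lower. Of all 13188 genes, 4014 were then higher and 3895 lower.

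In complex I, 11 of 38 tested rows were higher, 28.9% beside the 29.7% of all genes, with a median difference of 0.083. Differences between complexes or groups of subunits were not tested here or below. NDUFB8, a membrane-arm subunit, averaged 109 and 105 CPM in the wild-type series and 145 and 141 CPM in the knockdown series, a log2 difference of 0.41 ± 0.046 (SE; limma adjusted p = 0.000759). NDUFA10, an accessory subunit of the matrix side, averaged 95.9 and 92.1 CPM in wild type and 124 and 122 CPM in knockdown, a difference of 0.39 ± 0.046 (limma adjusted p = 0.000956). Both knockdown series lay above both wild-type series for each gene, and at 12 of 12 times. NDUFA5 had the largest difference, 0.49 ± 0.11 (limma adjusted p = 0.0113), at series means of 2.17 to 3.65 CPM.

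Of the 7 nuclear core subunits, which hold the flavin, the iron-sulphur clusters and part of the quinone site, NDUFV1 was higher and 6 were not called. The share higher was 14.3%, beside the 29.7% of all genes, and the median was 0.023. NDUFV1, which binds NADH, averaged 170 and 153 CPM in wild type and 203 and 200 CPM in knockdown, a difference of 0.32 ± 0.059 (limma adjusted p = 0.00528). NDUFV2, its partner in the NADH-binding module, differed by -0.0087 ± 0.042 and its series overlapped. NDUFA4, named for complex I but assigned to complex IV in later structures, was also higher, by 0.20.

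In complex II only SDHB, the iron-sulphur subunit, was called in total RNA. It averaged 171 and 166 CPM in wild type and 201 and 198 CPM in knockdown, a difference of 0.24 ± 0.043 (limma adjusted p = 0.00458). SDHA, SDHC and SDHD differed by 0.10, 0.18 and 0.093, and each had adjusted p-values above the threshold although the series did not overlap.

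In complex III, 4 of 10 rows were higher (UQCR10, UQCR11, UQCRB, UQCRHL), all of them small accessory subunits or a copy of one. The share was 40.0%, beside the 29.7% of all genes. The electron-carrying subunits CYC1 (-0.13 ± 0.067) and UQCRFS1 (0.083 ± 0.044) were not called. The 2 core proteins and 2 of 5 small accessory subunits were not called either. At an unadjusted limma p of 0.05, 7 of 10 rows were higher, without a share over all genes at hand. Without CT14 and CT18, 7 of 10 were called higher, where 4014 of all 13188 genes were. UQCR11 averaged 57.1 and 53.2 CPM in wild type and 72.3 and 71.0 CPM in knockdown, a difference of 0.37 ± 0.054 (limma adjusted p = 0.00201). UQCR10 averaged 227 and 218 CPM in wild type and 273 and 274 CPM in knockdown, a difference of 0.30 ± 0.044 (limma adjusted p = 0.00222). The wild-type and knockdown series did not overlap for either gene.

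In complex IV, 3 of 11 rows were higher, 27.3% beside the 29.7% of all genes. They were COX6B1 by 0.18, COX7B by 0.19 and COX7A2L, a factor of supercomplex assembly, by 0.21. In complex V, 7 of 16 were higher, 43.8% beside the 29.7% of all genes. They belong to the catalytic head (ATP5C1, ATP5D, ATP5E), the c ring (ATP5G1, ATP5G3) and the membrane accessory subunits (ATP5J2, ATP5L). None of the 4 peripheral stalk subunits was called. ATP5D averaged 18.2 and 21.2 CPM in wild type and 24.2 and 24.6 CPM in knockdown, a difference of 0.30 ± 0.084 (limma adjusted p = 0.0235).

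**Figure D1:**
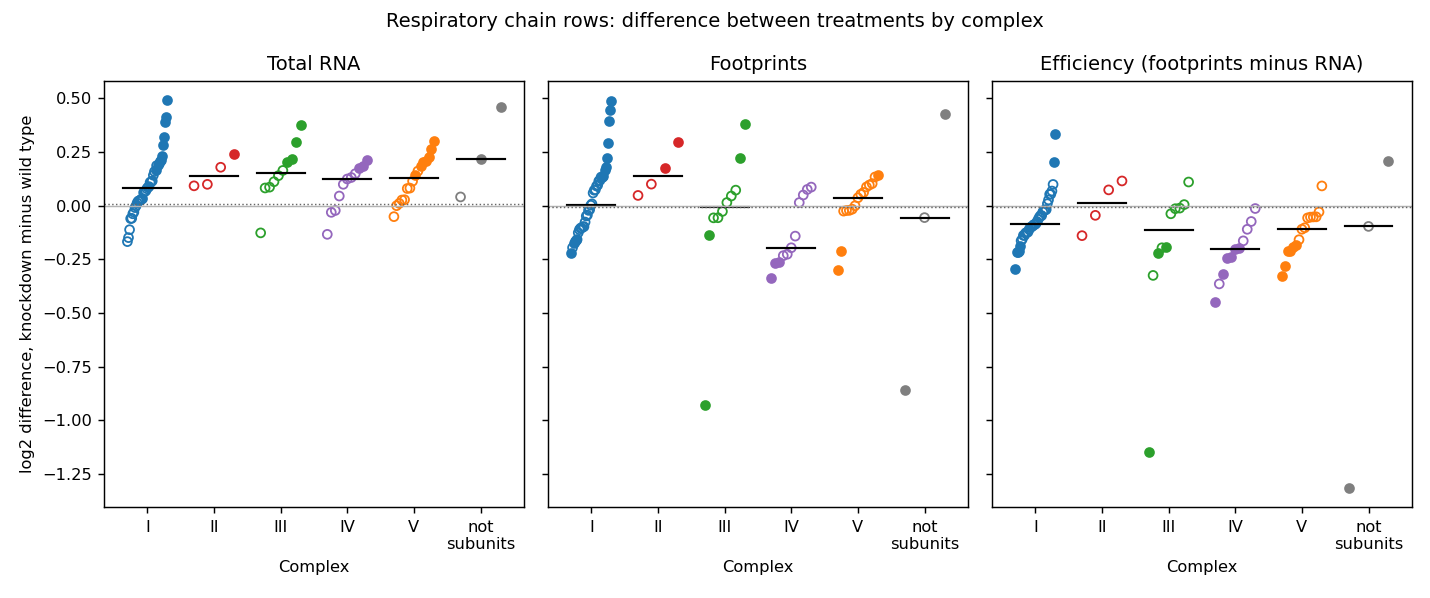
Each point is 1 row tested, by complex on the x axis, with its log2 difference between knockdown and wild type on the y axis, in total RNA, footprints and efficiency; filled points passed a limma adjusted p of 0.05, bars are medians, and the dotted line is the median of all genes. All 28 filled points in total RNA lie above 0, while the median of complex IV is -0.20 in both footprints and efficiency.

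In footprints, the same test divided the members: 15 of 79 were higher in knockdown and 12 lower, where 59.1% of all 11189 genes tested were called, 29.2% higher and 29.9% lower. The median difference was 0.0087 over members and -0.0059 over all genes. The split depended on scaling. With the authors' own library factors 30 members were higher and 4 lower, and the median of all genes moved from -0.0059 to 0.090. That scaling raised the share of higher genes among all calls from 49.4% to 62.6%. Leaving out knockdown replicate 1 left 6 higher and 3 lower, and leaving out replicate 2 left 6 higher and 4 lower. Without wild-type replicate 1 the median was 0.032 over members and -0.0095 over all genes. Without wild-type replicate 2 these medians were -0.031 and -0.0058.

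A set of 9 rows rose in both assays, 32.1% of the 28 higher in total RNA and 60.0% of the 15 higher in footprints: ATP5D, ATP5SL, NDUFA10, NDUFA13, NDUFB8, NDUFS4, NDUFS5, NDUFV1 and UQCR11. Over all genes tested in both assays, 2635 were higher in both, 77.5% of the 3402 higher in total RNA and 81.0% of the 3255 higher in footprints. NDUFA10 footprints averaged 164 and 167 CPM in wild type and 229 and 235 CPM in knockdown, a difference of 0.49 ± 0.048 (limma adjusted p = 0.000209). NDUFB8 footprints averaged 191 and 188 CPM in wild type and 245 and 254 CPM in knockdown, a difference of 0.39 ± 0.048 (limma adjusted p = 0.000544). For both genes the knockdown series were above the wild-type series in each assay. UQCR11 footprints were higher by 0.38 ± 0.063, close to its difference of 0.37 in total RNA.

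NDUFC2, an accessory subunit of the membrane arm, was called in footprints but not in total RNA. Its footprints averaged 21.4 and 19.4 CPM in wild type and 30.3 and 25.7 CPM in knockdown, a difference of 0.45 ± 0.096 (limma adjusted p = 0.00677), against 0.11 ± 0.044 in total RNA. In complex II, SDHC was higher by 0.29 ± 0.056 and SDHA by 0.17 ± 0.060 in footprints, and SDHB (0.10 ± 0.063) and SDHD (0.048 ± 0.074) were not called. UQCRC1, a core protein of complex III, was higher by 0.22 ± 0.050.

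Complex IV had no row higher and 3 of 11 lower in footprints, 27.3%, beside 29.2% higher and 29.9% lower over all genes tested. At an unadjusted limma p of 0.05 it had 0 higher and 5 lower, without a share over all genes at hand. Its median was -0.20 over 11 rows, against 0.12 in total RNA. COX8A, a small membrane subunit, averaged 387 and 371 CPM of footprints in wild type and 295 and 304 CPM in knockdown, and was lower by a log2 difference of -0.34 ± 0.050 (limma adjusted p = 0.00127). COX7A2 footprints averaged 361 and 311 CPM in wild type and 277 and 280 CPM in knockdown, a difference of -0.27 ± 0.076 (limma adjusted p = 0.0205). COX7B footprints averaged 300 and 247 CPM in wild type and 229 and 225 CPM in knockdown, a difference of -0.26 ± 0.090 (limma adjusted p = 0.0404). In each of these the lowest wild-type series stood above the highest knockdown series, by the least for COX7B. In total RNA, COX8A differed by -0.13 ± 0.057 and COX7A2 by -0.022 ± 0.073, neither called. With the authors' own factors complex IV had 3 rows higher and 1 lower in footprints and a median of -0.098, the only complex with a median below 0 under that scaling.

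In complex V, ATP5J, the coupling factor of the peripheral stalk, averaged 200 and 197 CPM of footprints in wild type and 156 and 168 CPM in knockdown, a difference of -0.30 ± 0.055 (limma adjusted p = 0.00349). Its total RNA differed by 0.028 ± 0.046. ATP5G2, a c-ring gene, was lower by -0.21 ± 0.055 and ATP5D higher by 0.14 ± 0.048. Among the electron carriers NDUFV2 was lower by -0.22 ± 0.059 and CYC1, cytochrome c1, by -0.14 ± 0.048. These falls depended on scaling too. With the authors' own factors complex I had 15 rows higher and 0 lower in footprints, so NDUFV2 was not called lower. Complex III then had 3 higher and 1 lower, and complex V 5 higher and 1 lower. Of all 11189 genes tested, 4271 were higher and 2548 lower under that scaling.

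**Figure D2:**
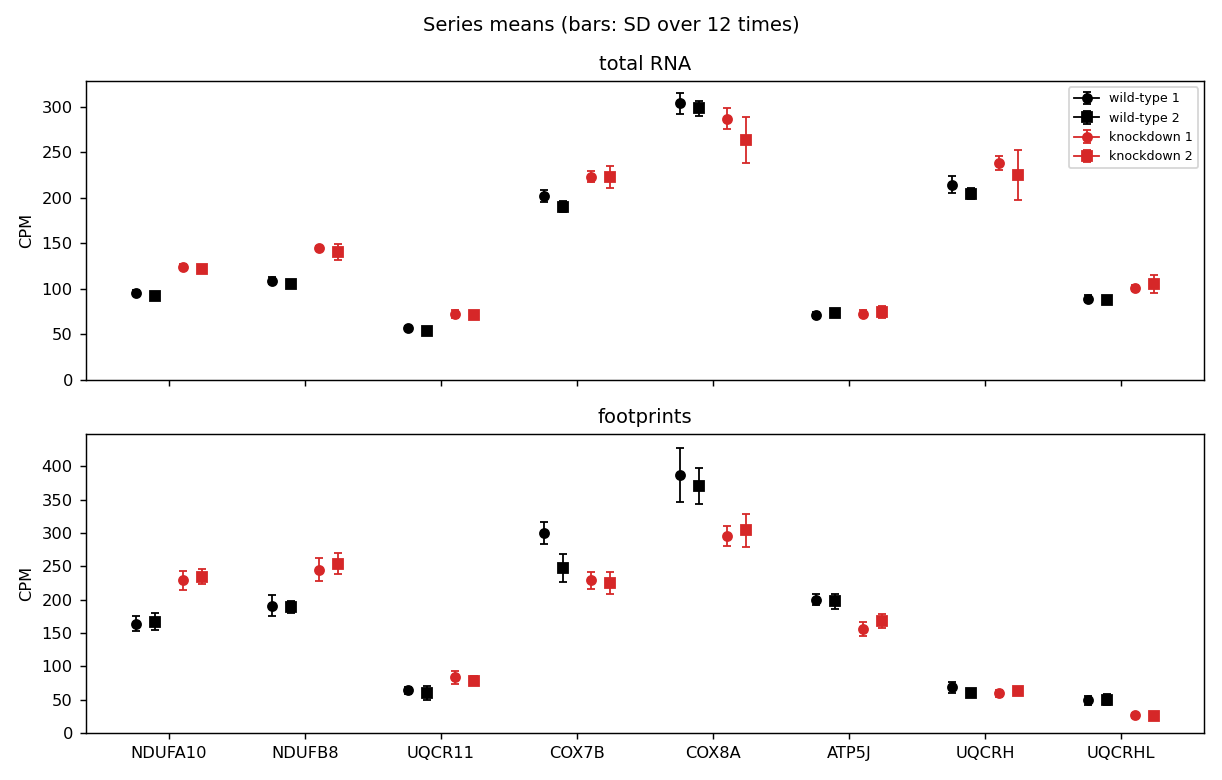
Mean CPM of each series (black wild type, red knockdown, circles replicate 1, squares replicate 2) for 8 rows, with total RNA above and footprints below; bars are the SD over 12 times. NDUFA10, NDUFB8 and UQCR11 are higher in knockdown in both panels, while COX8A, ATP5J and UQCRHL are lower in footprints.

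Translational efficiency was taken as the log2 footprint level minus the log2 total RNA level of the same series, and its difference between treatments was tested in the same way. Of 79 members 3 were higher and 21 lower, where 17.5% of all 11149 genes tested were called, 7.05% higher and 10.4% lower. The members' share called was 30.4%, and 65 of 79 lay below 0, with a median of -0.099 against -0.0081 over all genes. The call depended on how the assays were scaled. With the authors' own factors the median over members was 0.0024 and over all genes 0.092, and the calls were 7 higher and 7 lower. Among all genes called, 40.4% were higher with TMM and 81.8% with the authors' factors. Such a factor shifts every gene alike, so the members' median was below that of all genes under both scalings. With TMM over both assays jointly 3 members were higher and 15 lower.

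Leaving out knockdown replicate 1 left 0 higher and 5 lower members in efficiency, and leaving out replicate 2 left 1 higher and 4 lower. COX7B and the pair of copies UQCRHL and UQCRBP1 were called in both cases. Without wild-type replicate 1 the median was -0.11 over members and -0.0064 over all genes. Without wild-type replicate 2 these medians were -0.078 and -0.014.

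By complex, 6 of 11 rows of complex IV and 6 of 15 of complex V were lower in efficiency, 3 of 10 in complex III and 5 of 36 in complex I, where 2 were higher. None of the 4 complex II rows was called, and 1 of them was lower at an unadjusted limma p of 0.05. Of all genes tested 7.05% were higher and 10.4% lower. With the authors' own factors complexes IV and V each had 0 rows higher and 2 lower. Complex III then had 1 higher and 1 lower, complex I 4 higher and 1 lower, and complex II 1 higher and 0 lower. Differences between complexes were not tested. With TMM within an assay all 3 c-ring genes, which encode the same mature protein, were lower, ATP5G1 by -0.19, ATP5G2 by -0.21 and ATP5G3 by -0.21.

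COX7B had the largest difference in complex IV, -0.45 ± 0.064 (limma adjusted p = 0.000574). Its log2 efficiency was 0.57 and 0.37 in the wild-type series and 0.033 and 0.014 in the knockdown series. COX6B1, which joins the complex on the cytochrome c side, was lower by -0.32 ± 0.055 (limma adjusted p = 0.00159), with efficiencies of 0.26 and 0.15 in wild type and -0.11 and -0.12 in knockdown. For neither gene did the series overlap. In complex V, ATP5J was lower by -0.33 ± 0.054 and ATP5E by -0.28 ± 0.052, and in complex I, NDUFB3 by -0.30 ± 0.058. NDUFC2 was higher by 0.34 ± 0.089 and ATP5SL by 0.21 ± 0.061.

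The largest differences in footprints and efficiency belonged to near-identical copies. UQCRHL, an intronless copy of the complex III hinge gene UQCRH, averaged 89.2 and 87.8 CPM of total RNA in wild type and 101 and 106 CPM in knockdown, a log2 difference of 0.22 ± 0.046. Its footprints averaged 49.2 and 50.1 CPM in wild type and 26.3 and 25.6 CPM in knockdown, a difference of -0.93 ± 0.060 (limma adjusted p = 4.49e-05). UQCRH itself had 68.2 and 60.3 CPM of footprints in wild type and 59.7 and 63.5 CPM in knockdown, which overlapped (-0.056 ± 0.075). UQCRHL thus made up 41.9% and 45.4% of the footprints of the pair in wild type and 30.6% and 28.7% in knockdown, and 29.4% to 31.9% of their total RNA in all 4 series.

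UQCRBP1, a pseudogene of UQCRB, showed a like pattern at a lower level. Its total RNA averaged 1.14 and 1.10 CPM in wild type and 1.53 and 1.74 CPM in knockdown, and its footprints 12.6 and 13.6 CPM in wild type and 7.29 and 7.18 CPM in knockdown. Footprints were lower by -0.86 ± 0.095 and efficiency by -1.31 ± 0.11 (limma adjusted p = 6.66e-06). How reads were divided between a gene and such a copy is not given in the sources used here, so the values of both pairs are uncertain. Over the 35 rows that RefSeq types as pseudogenes and that were tested in footprints, the median difference was 0.0037, with 7 higher and 12 lower.

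**Figure D3:**
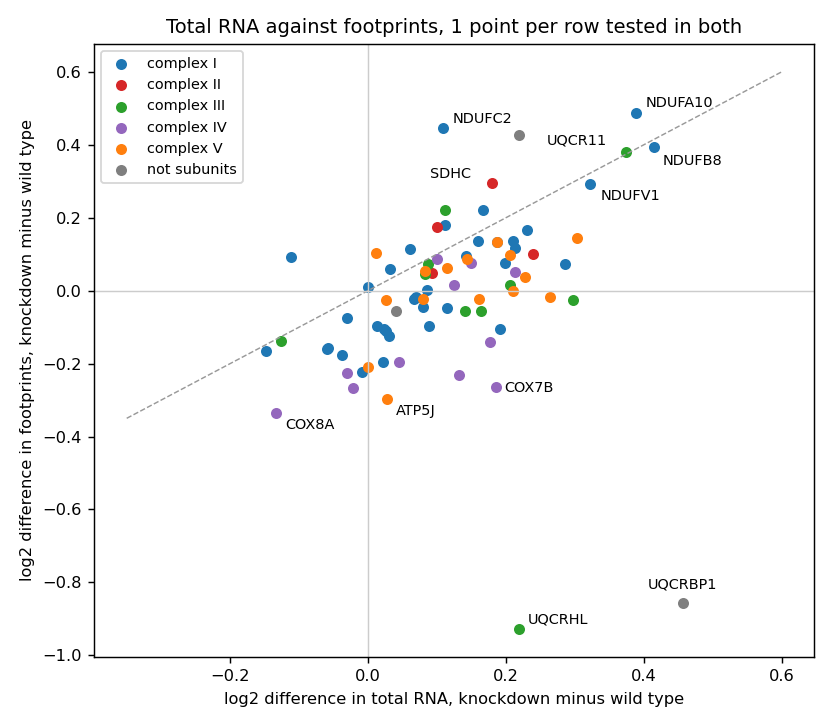
Each point is 1 of the rows tested in both assays, with its log2 difference between knockdown and wild type in total RNA on the x axis and in footprints on the y axis, coloured by complex; the dashed line marks equal differences. UQCRHL and UQCRBP1 stand apart at the lower right, and NDUFA10, NDUFB8 and UQCR11 lie near the line at the upper right.

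The wider set of respiratory chain genes was read from lists drawn up with the members. Of 14 transcriptional regulators of the chain, 4 were higher and 6 lower in total RNA, a share of 71.4% beside the 58.6% of all genes. PPARGC1A, the coactivator of mitochondrial biogenesis, was lower by -0.97 ± 0.12 (limma adjusted p = 0.00124), GABPA by -0.65 ± 0.063, NRF1 by -0.56 ± 0.070 and TFAM, the packaging and transcription factor of mitochondrial DNA, by -0.16 ± 0.044. TFB1M, a mitochondrial rRNA methyltransferase, was higher by 0.51 ± 0.060, ESRRA by 0.47 ± 0.070, MYC by 0.37 ± 0.071 and POLRMT by 0.20 ± 0.070. GABPB1 and GABPB2 were lower by -0.39 ± 0.050 and -0.40 ± 0.069. In footprints 4 of 13 were higher and 5 lower, 69.2% beside the 59.1% of all genes, and PPARGC1A was not tested. GABPB2 had the largest fall there, -0.83 ± 0.095. GABPB1 was lower by -0.51 ± 0.060, NRF1 by -0.50 ± 0.080, GABPA by -0.43 ± 0.10 and YY1 by -0.20 ± 0.058. TFB1M was higher by 0.60 ± 0.062 and ESRRA by 0.41 ± 0.079, and TFAM was not called (-0.046 ± 0.054).

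The members' differences were set beside these promoter sequences. Of 15 tested members with an NRF1-type match, 3 were higher in total RNA, with a median of 0.093, and of 49 without one, 16, with a median of 0.10. With CCGGAAG 5 of 20 were higher (median 0.11) and without it 14 of 44 (median 0.086). With the E-box CACGTG 2 of 7 were higher (median 0.11) and without it 17 of 57 (median 0.093). No difference between these sets was tested.

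Of 45 assembly factors tested in total RNA, 15 were higher and 9 lower, a share of 53.3% beside the 58.6% of all genes. TIMMDC1, a complex I factor, was higher by 0.45 ± 0.044 and NUBPL, which delivers iron-sulphur clusters to complex I, was lower by -0.65 ± 0.071. In footprints 12 of 44 were higher and 13 lower, a share of 56.8% near the 59.1% of all genes. COX17, the copper chaperone of complex IV, had the largest fall there, -1.06 ± 0.13. In efficiency none of 44 was higher and 8 were lower by limma, a share of 18.2% near the 17.5% of all genes. CYCS, cytochrome c, was lower in footprints by -0.22 ± 0.055 and not called in total RNA (-0.092 ± 0.047).

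The second question was how the subunits varied over the day. A 24 h cosine and sine were fitted to each gene over the 24 libraries of a treatment and assay. In wild-type total RNA 14 of 82 members passed, where 22.4% of all genes did. The series of wild-type total RNA deviated together by replicate number, and with the replicate as a block 24 members passed and 37.8% of all genes. Without replicate 1, 7 members passed and 22.2% of all genes. Without replicate 2, 3 members did, of which 1 was among the 14, and 12.0% of all genes. With a linear drift over the day added to the model none passed, and 24 genes of all those tested did, 0.182%. Over a single day a rhythm and a drift cannot be told apart for these members.

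Amplitudes were small. The 14 called members had amplitudes of 0.049 to 0.13 on the log2 scale, measured from the middle of the fitted curve to its peak, and the median over members was 0.042 against 0.073 over all genes. Of the 14, 12 peaked between CT0 and CT12. NDUFA3, a complex I accessory subunit, had the largest amplitude, 0.13 ± 0.031, with its peak at CT17.2. NDUFB3 (0.11 ± 0.026, CT3.67) and ATP5G1 (0.10 ± 0.032, CT4.43) followed. No complex IV row passed, and none of its 11 rows had an unadjusted limma p under 0.05, where 4763 of all 13207 genes did. The replicate block called 2 of them.

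In knockdown total RNA 26 of 82 members passed, where 32.7% of all genes did. The set held 3 of 4 complex II rows, 12 of 38 of complex I, 3 of 10 of complex III, 1 of 11 of complex IV and 7 of 16 of complex V. Without replicate 1, 5 members passed and 8.76% of all genes, and without replicate 2, 6 members and 14.8%. With a linear drift SDHA and UQCR10 remained, and 4.35% of all genes. Of the 14 rhythmic members of wild type 13 were among the 26 of knockdown, 92.9% and 50.0% of the sets, where 1460 genes of all those tested were in both, 50.0% of the 2921 of wild type and 34.0% of the 4293 of knockdown. Of the 26, 21 peaked between CT0 and CT12. SDHD had the largest amplitude, 0.18 ± 0.049 with a peak at CT4.09, against 0.078 ± 0.021 at CT4.29 in wild type, and the change was not called (limma adjusted p = 0.373).

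Footprints held fewer calls. In wild type 2 of 79 members passed, NDUFS3 and UQCRFS1, where 6.66% of all genes did. With the replicate block 3 passed, ATP5B being added, and 12.0% of all genes. UQCRFS1, the Rieske iron-sulphur protein, had an amplitude of 0.19 ± 0.034 with its peak at CT4.09, and in total RNA of 0.067 ± 0.014 with its peak at CT5.10. NDUFS3, a core subunit of complex I, had 0.15 ± 0.032 at CT5.89. Without replicate 1 UQCRFS1 alone passed, with 4.09% of all genes, and without replicate 2 neither did, with 1.17% of all genes. In knockdown footprints 4 members passed, where 17.7% of all genes did: NDUFS1, SDHB, NDUFB4 and ATP5B, with amplitudes of 0.077 to 0.099. ATP5B alone passed without replicate 2, with 7.23% of all genes, and none without replicate 1, with 4.17% of all genes. With the replicate block 3 passed, without NDUFB4, and 17.3% of all genes. With a linear drift none of the 4 passed, and 2.33% of all genes did.

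**Figure D4:**
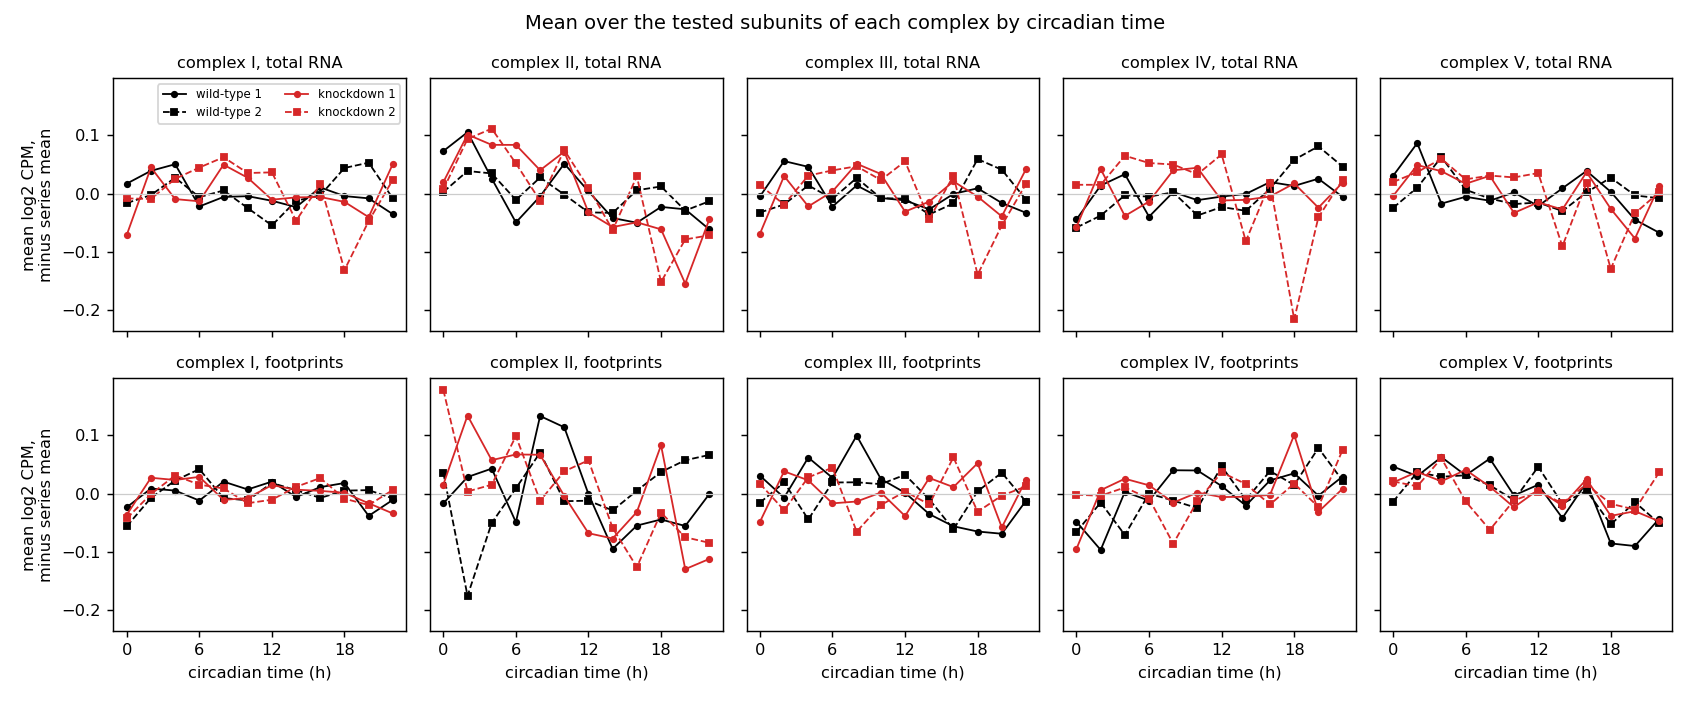
Mean log2 CPM over the tested rows of each complex at each circadian time, minus the mean of its own series, for total RNA (above) and footprints (below); black is wild type, red knockdown, and circles and squares are replicates 1 and 2. Complex II ends lower than it starts in both knockdown series, and knockdown replicate 2 dips at CT18 in total RNA, by -0.22 in complex IV.

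As means over whole complexes, the daily range in total RNA was 0.072 to 0.28 on the log2 scale over the 5 complexes and 4 series. The widest range, 0.28 in complex IV, came from the shallow knockdown library of replicate 2 at CT18, which deviated by -0.22 from its series mean. The same library deviated by -0.13 to -0.15 in the other complexes. Complex II in knockdown total RNA changed by -0.15 and -0.17 from the first 3 to the last 3 times in replicates 1 and 2, and in wild type by -0.11 and -0.035. Its 4 rows are few, and single genes weigh heavily in such a mean.

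Whether the daily course changed with knockdown was tested as the difference between the fitted cosine and sine terms. In total RNA 4 of 82 members passed, SDHA, UQCR10, NDUFS1 and NDUFB10, where 10.5% of all genes did. With the replicate block 11 passed and 18% of all genes, and with a linear drift SDHA alone and 1.11%. In footprints none of 79 passed by limma or edgeR and DESeq2 called 1, where 3.67% of all genes passed by limma. At an unadjusted limma p under 0.05 there were 3 members, beside 2030 of all 11572 genes. The replicate block called ATP5G2, where 6.26% of all genes passed, and the linear drift called none, where 0.588% did.

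SDHA was called under each of the 11 alternatives run for this test, with changes of 0.15 to 0.22. In knockdown total RNA it ranged from 59.8 to 82.9 CPM over 24 libraries (median 73.7), with the highest mean of both replicates at CT6 (80.6 CPM) and the lowest at CT20 (62.3 CPM). In wild type it ranged from 59.6 to 74.8 CPM (median 69.1), with the lowest mean at CT14 (64.5 CPM) and the highest at CT20 (71.9 CPM). Between CT4 and CT10 the 8 knockdown libraries held 75.0 to 81.5 CPM and the 8 wild-type libraries 62.5 to 73.3 CPM, which do not overlap. From CT14 on they did overlap, at 59.8 to 75.9 and 59.6 to 73.4 CPM. The window from CT4 to CT10 lies around the peak fitted to the same libraries, so it is not separate evidence of a change. By replicate, knockdown was highest at CT2 and CT10 and lowest at CT20 in both. Wild type was highest at CT2 and CT20 and lowest at CT6 and CT14.

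The fitted amplitude of SDHA was 0.15 ± 0.022 in knockdown, with a peak at CT7.09 and a peak-to-trough fold of 1.23 (limma adjusted p = 5.08e-05). In wild type it was 0.046 ± 0.024 (limma adjusted p = 0.331). The difference of the 2 fits had an amplitude of 0.18 ± 0.032 (limma adjusted p = 0.000519, and 0.0456 with a linear drift, the highest over the alternatives). In footprints the knockdown amplitude was 0.089 ± 0.032 and the change was not called (limma adjusted p = 0.320). SDHA has named pseudogenes, so its reads too may be shared.

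UQCR10, whose mean level was higher in knockdown, peaked at CT4.24 in wild type and CT11.4 in knockdown, with amplitudes of 0.082 and 0.068 (change 0.12 ± 0.028, limma adjusted p = 0.00912). NDUFS1, the large iron-sulphur subunit of complex I, had an amplitude of 0.12 ± 0.020 at CT5.25 in knockdown and 0.016 ± 0.020 in wild type (change 0.12 ± 0.029, limma adjusted p = 0.0140). NDUFB10 peaked at CT4.84 in wild type and CT16.2 in knockdown, neither called alone (change 0.11 ± 0.029, limma adjusted p = 0.0252). Without the shallow libraries NDUFB10 was not called. With a linear drift the changes of UQCR10, NDUFS1 and NDUFB10 were no longer called. Without replicate 1 SDHA alone was called, with 2.89% of all genes, and without replicate 2 SDHA and NDUFB10, with 6.75%.

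**Figure D5:**
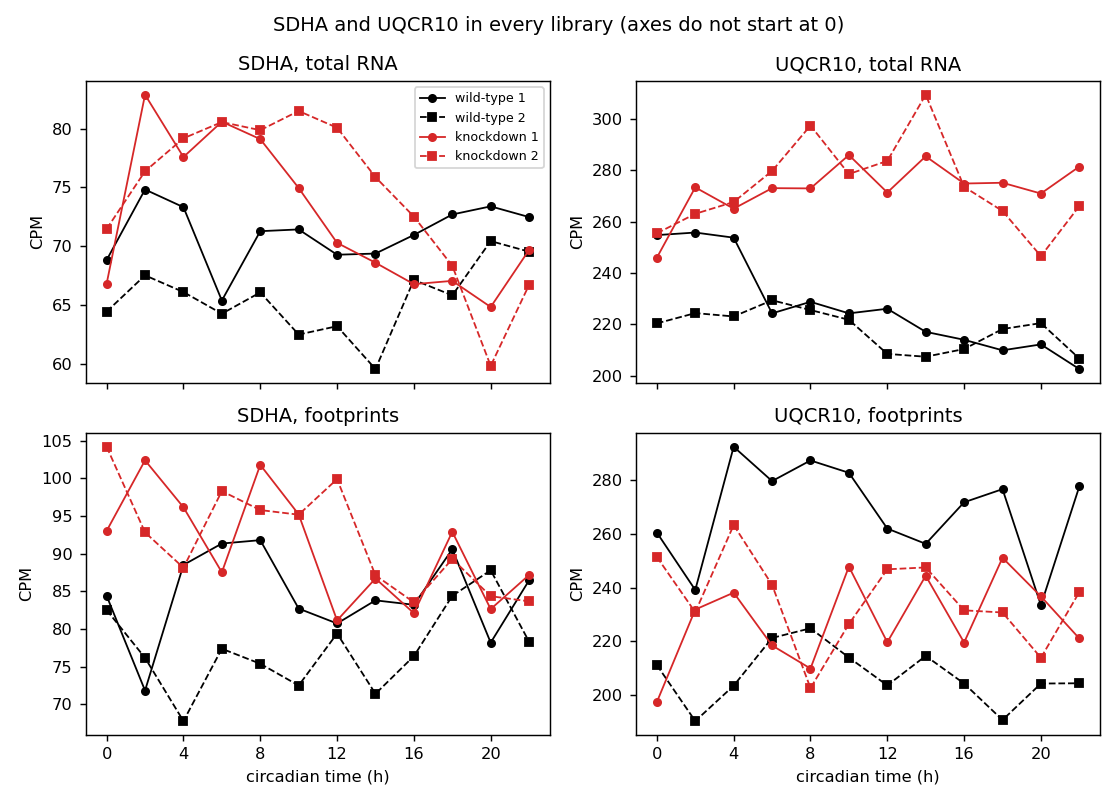
CPM of SDHA and UQCR10 in every library by circadian time, in total RNA (above) and footprints (below); black is wild type, red knockdown, circles and squares replicates 1 and 2, and the axes do not start at 0. SDHA total RNA in both knockdown series lies above both wild-type series from CT4 to CT10 and falls to 62.3 CPM on average at CT20.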

How the data were processed

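Total RNA and ribosome footprints of U2-OS cells were each measured in 48 libraries. The deposited tables hold signal values: gene counts that the authors divided by library size factors. Per the submitters' processing notes, STAR 2.3.0e, HTSeq 0.5.4p1, DESeq2 and GRCh37/hg19 were used, with no strand setting given. The steps between values gave back whole reads: 100% of values were whole within 0.001 read.

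TMM factors (edgeR 4.0.16) were computed per assay over all rows, before any filter. Genes passing filterByExpr (minimum count 10) were tested, and log2(CPM + 0.25) values were averaged over the 12 times of a series. Differences on this scale understate changes of low genes. limma 3.58.1 (R 4.3.3) compared 2 knockdown with 2 wild-type series means in total RNA, footprints and efficiency, the footprint minus the total RNA value. Rhythms were tested by limma on single libraries with a 24 h cosine and sine. The threshold was a Benjamini-Hochberg adjusted p of 0.05 over all genes tested. Fits were tested on simulated data first. As alternatives on the recovered reads, edgeR's quasi-likelihood test called 7915 genes in total RNA, 6665 in footprints and 1885 in efficiency, and DESeq2 1.42.0 was run too. Others were the deposited and median-ratio scalings, a pseudocount of 1, no filter, libraries as samples, a replicate block, a linear drift, and leaving out each series or the shallow libraries.

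Treatment, assay and replicate of a column come from its table's name and its time from its header, matched to the labels. Replicate numbers paired the times of wild-type total RNA, where 66 of 66 pairs of times had deviations correlated above 0.1 (0.32 to 0.57). In wild-type footprints 59 of 66 did. Wild type and knockdown at the same time did so at 1 of 12 times in total RNA and 4 of 12 in footprints, so across treatments they share only a number. Replicates of a group differed by more than counting noise (chi-square over its degrees of freedom 1.38 to 10.3).

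The members and lists were chosen with earlier results of these data known. Named were, per complex and direction, the 2 called members with the largest differences at a mean log2 CPM of at least 1, the 3 with the largest amplitudes, and members of set roles (complex II, catalytic and c-ring subunits, isoform pairs, rows that are not subunits). Chosen after their values were seen were NDUFB6, NDUFB10, NDUFA5's and NDUFA10's further values, NDUFA13, NDUFS4, NDUFS5, UQCRB, ATP5J2 and ATP5L. So were GABPA, GABPB1, GABPB2, YY1, ESRRA, MYC, POLRMT and members named by level. Protein lengths were not used here, so levels are not compared between genes. Promoter and pseudogene data are RefSeq's, where 90 of 91 rows matched. The value of 1 called member is not reported here.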

Additional observations from a re-analysis of the deposited data

Results flagged for a closer look

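The daily course of 4 members in total RNA differed between wild type and knockdown in a test of the difference itself, by limma on the cosine and sine terms. The size of the change in fitted amplitude and phase, on the log2 scale, was 0.184 for SDHA, 0.1205 for UQCR10, 0.1182 for NDUFS1 and 0.1085 for NDUFB10. SDHA and NDUFS1 had the larger amplitude in knockdown, and the fitted peaks of UQCR10 and NDUFB10 lay at other times of day in the 2 treatments. Of the 4, SDHA alone was called with a linear drift added and in each replicate alone.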

How the results depend on the processing

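For total RNA, the count of higher members was 5 to 53 and of lower members 0 to 5 when 1 series was left out, and the lone series left was assumed to vary like the others. Libraries taken as samples gave 57 higher and 6 lower, and with an estimated series correlation 45 and 4. DESeq2, edgeR, median-ratio scaling, no filter and the replicate block each gave 1 lower member.

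For footprints, leaving out 1 series gave 6 to 26 higher and 3 to 26 lower members, and a median of -0.031 to 0.032. The deposited scaling gave 30 higher, 4 lower and a median of 0.11. Libraries as samples gave 28 and 25, and the estimated correlation 19 lower. For efficiency, leaving out 1 series gave 0 to 8 higher and 4 to 29 lower. The deposited scaling gave 7 and 7 with a median of 0.0024, libraries as samples 5 and 38, the estimated correlation 32 lower, and no filter 1 and 11.

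For rhythms, the linear drift left 0 called in wild-type total RNA, 2 in knockdown total RNA, 0 in either footprint set and 1 change in total RNA. Leaving out 1 replicate gave 3 to 7 in wild-type total RNA, 5 to 6 in knockdown total RNA, 0 to 1 in wild-type and in knockdown footprints, and 1 to 2 changes in total RNA. DESeq2 called 9 changes in total RNA and 1 in footprints, and the deposited scaling 1 in footprints. The replicate block called 24 in wild-type total RNA, 11 changes in total RNA and 1 in footprints. The block fit across treatments gave 32 higher and 1 lower in total RNA, 12 and 16 in footprints, and 3 and 23 in efficiency, by numbers that the treatments only share.

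Of 1256 values of single members under alternatives, 1017 kept direction and side of the threshold, 176 lost the call, 54 gained one and 9 changed sign. The sign changes were all of uncalled members. Leaving out 1 series gave -0.12 to 0.076 for COX7A2 and -0.022 to 0.0042 for NDUFV2 in total RNA, -0.018 to 0.11 for SDHD and -0.14 to 0.032 for UQCRH in footprints, and -0.0051 to 0.24 for SDHC in efficiency. COX7A2 was at 0.00080 without CT14 and CT18, and UQCRH at 0.042 with the deposited scaling. The cause of these changes was not tested.

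With 2 series per treatment, the calls rest on the spread of 4 values shared across genes. Over all genes, leaving out a knockdown replicate lowered the calls from 7733 to 4610 or 4401 in total RNA, from 6609 to 4344 or 4229 in footprints and from 1948 to 572 or 392 in efficiency.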
